A study of Mus musculus with 11 samples.

Results

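The 10 genes described here belong to interleukin-2 (IL-2) signalling and the feedback it induces, and were measured in CD4 T cells from fibrotic mouse liver with and without the autophagy gene Atg5. They were chosen by name: the cytokine gene Il2, the receptor genes Il2rb and Il2rg, the transcription factor genes Stat5a and Stat5b, the inhibitor genes Cish, Socs1, Socs2 and Socs3, and the kinase gene Pim1. Each name matched 1 gene ID, so 10 of the 56748 genes of the deposited count table are described, and all 10 passed the filter on low counts. Per the series' design text, hepatic CD4 T cells were flow-sorted after 5 weeks of carbon tetrachloride (CCl4) injections, which damage hepatocytes until the liver scars. The protocols in the labels instead describe RNA from sections of fixed, paraffin-embedded blocks, and the labels do not settle which applies. Both groups received CCl4. The Atg5-deficient group (ATG5TLymph-/-, 6 libraries) lacks Atg5 in T lymphocytes, and the wild-type group (ATG5fl/fl, 5 libraries) carries the floxed gene undeleted. The labels name neither the Cre driver of the deletion nor the age of the mice, and they do not say that each library came from its own mouse, so p-values measure the spread between these libraries.

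IL-2 is made by activated T cells and acts on the same cells and their neighbours. Its receptor signals through the beta chain (Il2rb), shared with the IL-15 receptor, and the common gamma chain (Il2rg), shared with the receptors for IL-4, IL-7, IL-9, IL-15 and IL-21. The Janus kinases JAK1 and JAK3 bound to these chains phosphorylate STAT5A and STAT5B, which enter the nucleus and bind DNA at a palindromic motif, TTCNNNGAA. Among the genes that they switch on are inhibitors of the same pathway: CIS (Cish) and the suppressors of cytokine signalling SOCS1, SOCS2 and SOCS3. PIM1 is a kinase that favours survival and growth and is induced by the same signal. In the liver and elsewhere regulatory T cells depend on IL-2 that other T cells make.

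The motif is shown in the promoters of the genes where it was found, since these genes are read as outputs of STAT5. RefSeq promoters (GRCm38.p6, 250 bases before to 50 bases after a start site) were given for 8 of the 10 genes, in 11 windows, and not for Il2rb and Socs2. The search used the letters TTCNNNGAA, which read the same on both strands. Of all 32851 windows of this length, 8.30% held the motif at least once and 0.457% held it more than once. Among the genes described here, Cish held it 2 times, Socs3 held it 1 time, and the windows of Il2, Il2rg, Stat5a, Stat5b, Socs1 and Pim1 did not hold these letters. In the Cish window the matches begin at bases 1 and 12 after the start site, inside the first exon of a GENCODE transcript (chr9:107296654-107296683, plus strand). In the Socs3 window the match begins 154 bases before the RefSeq start site, and the stretch shown lies between GENCODE exons of the gene (chr11:117969452-117969616, minus strand). Both stretches are written 5′ to 3′ on the strand of the gene, with the matches in capitals.
Cish: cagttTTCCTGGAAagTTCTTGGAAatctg
Socs3: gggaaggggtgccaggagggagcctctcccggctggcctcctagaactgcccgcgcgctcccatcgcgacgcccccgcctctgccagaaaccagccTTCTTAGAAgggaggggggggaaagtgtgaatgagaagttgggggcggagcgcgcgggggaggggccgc

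Libraries held 30699408 to 47564440 counted reads, and levels are given as CPM, a gene's reads relative to the reads of its library (counts-per-million scale), after TMM scaling, which corrects for differences in library composition. Atg5 itself stood at 15.2 to 22.5 CPM in Atg5-deficient and 13.4 to 21.04 CPM in wild-type libraries, a log2 fold change of 0.18 (SE 0.14, adjusted p = 0.488). Gene-level counts include exons that a deletion leaves in place, and no label names the deleted exons, so this value does not check the genotype labels. Summed markers of CD4 T cells (2688 to 4073 CPM) exceeded those of hepatocytes (35.2 to 896 CPM) in the libraries. Across all genes 797 were higher and 434 lower in Atg5-deficient libraries (edgeR's quasi-likelihood test, Benjamini-Hochberg adjusted p under 0.05), or 6.84% of the 17987 tested. With upper-quartile scaling these counts were 584 and 685, so that 46.0% rather than 64.7% of called genes were higher.

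Of the 10 genes, 3 rose in Atg5-deficient libraries, none fell and 7 did not pass. Il2rb, Cish and Socs2 were the genes that rose, by 1.62-fold, 1.48-fold and 2.13-fold. The background in the same comparison was 4.43% of tested genes called higher and 2.41% called lower. This background includes genes with few reads. With a stricter filter (minimum count of 50) 853 of 13249 tested genes were higher and 537 lower, or 10.5% called. Of the 10 genes 9 were then tested and 3 were higher. With 0 genes lower by edgeR, 0 were lower at an unadjusted p under 0.05, and 0 by DESeq2 and by limma-voom. Both other tools called the same genes and Pim1 in addition, 4 in all. Over all tested genes DESeq2 called 13.2% and limma-voom 19.0%, in either direction. At an unadjusted p under 0.05 by edgeR there were 5 of the 10 genes, against 23.4% of all tested genes. Log2 fold changes were positive in 8 of the 10 genes, with a median of 0.32, against 49.7% positive and a median of -0.0027 over all tested genes.

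**Figure D1:**
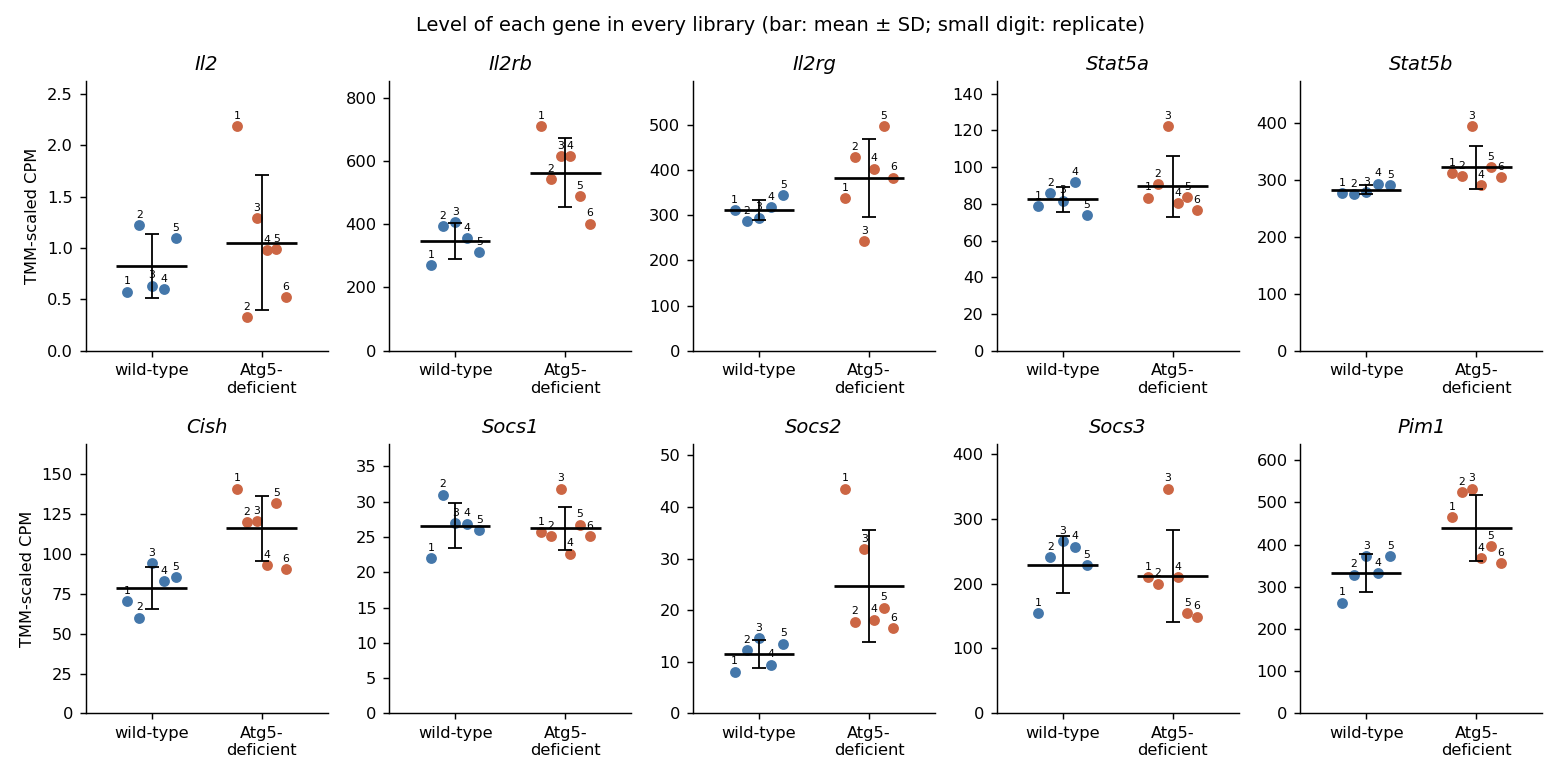
Level of each gene in every library, in TMM-scaled CPM on axes that start at 0. Points are libraries, small digits are replicate numbers, horizontal bars and whiskers are mean ± SD (5 wild-type and 6 Atg5-deficient libraries). All 6 Atg5-deficient points lie above the wild-type points for Socs2, 5 of 6 for Il2rb and 4 of 6 for Cish.

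The cytokine gene Il2 (ENSMUSG00000027720, chromosome 3, 37120523 to 37125959, minus strand, GRCm38) was counted at low levels in every library. Atg5-deficient replicates 1 to 6 had 79, 13, 41, 37, 40 and 20 reads, and wild-type replicates 1 to 5 had 22, 38, 28, 21 and 43. In CPM this was 1.05 ± 0.657 (SD, n = 6) against 0.825 ± 0.309 (SD, n = 5). The groups overlapped, and the highest and the lowest library were both Atg5-deficient: replicate 1 at 2.19 CPM (95% exact Poisson interval 1.73 to 2.73, counting error only) and replicate 2 at 0.328 CPM (0.175 to 0.561). The log2 fold change was 0.35 (SE 0.46, adjusted p = 0.704), with a 95% interval from -0.64 to 1.34. Without Atg5-deficient replicate 1 it was -0.0041.

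Il2rb, the beta chain of the IL-2 and IL-15 receptors (ENSMUSG00000068227, chromosome 15, 78479256 to 78495271, minus strand), had 711, 543, 616, 616, 488 and 402 CPM in Atg5-deficient replicates 1 to 6. Wild-type replicates 1 to 5 had 270.1, 395, 406, 357 and 312 CPM. The lowest Atg5-deficient library, replicate 6, lay just under the highest wild-type library, replicate 3, and the other 5 lay above every wild-type library. Il2rb rose from 348 ± 57.0 CPM (SD, n = 5) to 563 ± 109 CPM (SD, n = 6), with a log2 fold change of 0.69 (SE 0.14, adjusted p = 0.0134) and a 95% interval of the fold from 1.31 to 2.001. Leaving out any 1 of the 11 libraries kept the call, with log2 fold changes from 0.62 to 0.77.

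Il2rg, the common gamma chain (ENSMUSG00000031304, chromosome X, 101264378 to 101268255, minus strand), had 337, 429, 242, 403, 497 and 383 CPM in Atg5-deficient replicates 1 to 6, and 312, 287, 295, 318 and 344 CPM in wild-type replicates 1 to 5. Atg5-deficient replicate 3 was the lowest of all 11 libraries, whereas 4 Atg5-deficient libraries lay above every wild-type one. With means of 382 ± 86.6 CPM (SD, n = 6) and 311 ± 22.3 CPM (SD, n = 5), Il2rg did not pass (log2 fold change 0.30, SE 0.14, adjusted p = 0.225). Without Atg5-deficient replicate 3 it was 0.40 and passed (adjusted p = 0.0189). Il2rg shares 728 exonic bases with Gm20489, a gene annotated on the same strand, whose total count was 67.8% of that of Il2rg. Its values followed those of Il2rg, at 257 ± 56.0 CPM (SD, n = 6) against 214 ± 12.4 CPM (SD, n = 5), with a log2 fold change of 0.26 (adjusted p = 0.261), and reads over the shared bases cannot be assigned to one of them.

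Stat5a and Stat5b encode the STAT proteins that the IL-2 receptor activates, and lie 8626 bases apart on chromosome 11, transcribed away from each other. Stat5a (ENSMUSG00000004043, 100859351 to 100885169, plus strand) had 83.4, 90.5, 122, 80.3, 83.6 and 76.6 CPM in Atg5-deficient replicates 1 to 6 and 78.8, 85.8, 81.8, 91.9 and 74.0 CPM in wild-type replicates 1 to 5. Apart from Atg5-deficient replicate 3 at 122 CPM, the libraries of both genotypes lay in 1 range. The Stat5a means were 89.5 ± 16.8 CPM (SD, n = 6) and 82.4 ± 6.84 CPM (SD, n = 5), with a log2 fold change of 0.12 (SE 0.11, adjusted p = 0.580, 95% interval -0.13 to 0.36). Without replicate 3 it was 0.01 (adjusted p = 0.964).

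Stat5b (ENSMUSG00000020919, 100780731 to 100850724, minus strand) had 312, 307, 395, 292, 323 and 306 CPM in Atg5-deficient replicates 1 to 6 and 277, 276, 279, 294 and 291 CPM in wild-type replicates 1 to 5. Of the Atg5-deficient libraries 5 lay above every wild-type library, by small margins except in replicate 3. Means of 322 ± 37.1 CPM (SD, n = 6) and 283 ± 8.47 CPM (SD, n = 5) gave a log2 fold change of 0.19 (SE 0.08, adjusted p = 0.190), which did not pass. Its 95% interval ran from 0.01 to 0.36, so an increase above 1.29-fold lies outside it. Without replicate 3 the Stat5b log2 fold change was 0.12 (adjusted p = 0.232).

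Per kilobase of exon, Stat5b exceeded Stat5a in all 11 libraries. The ratio of Stat5b to Stat5a was 4.82, 4.36, 4.16, 4.68, 4.97 and 5.14 in Atg5-deficient replicates 1 to 6 and 4.52, 4.14, 4.40, 4.12 and 5.07 in wild-type replicates 1 to 5. The log2 ratio of Stat5a to Stat5b was -2.23 ± 0.116 (SD, n = 6) and -2.15 ± 0.122 (SD, n = 5), a difference of -0.08 (two-sided exact permutation test, p = 0.307, where the smallest possible p is 0.00433). The coding sequences of both genes (2394 and 2361 bases) are identical at 90.8% of aligned bases. The first 100 bases of their longest identical run are shown because a read inside it does not tell the genes apart. The run is 324 bases long, begins at coding base 571 of both, and crosses an intron (chr11:100874023-100874983 in Stat5a and chr11:100797741-100798701 in Stat5b, GRCm38; written 5′ to 3′ on the coding strand).
Stat5a and Stat5b: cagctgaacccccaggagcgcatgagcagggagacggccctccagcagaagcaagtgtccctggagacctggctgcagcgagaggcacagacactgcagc
Of all stretches of 75 bases in the Stat5a coding sequence, 16.7% occurred unchanged in that of Stat5b, and 11.5% of those of 100 bases. No source used here tells how reads that fit both genes were handled, so the ratio between the genes is less certain than the change of each. The ratio also rests on merged exon lengths (7133 bases for Stat5a, 5539 for Stat5b). The length of Stat5a includes exons of unprocessed transcripts, which overstates the ratio of Stat5b to Stat5a. Total counts were 125060 for Stat5b and 35272 for Stat5a. Stat5a also shares 72 exonic bases with Stat3, which lies on the opposite strand and drew more reads.

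Among the inhibitors, Cish and Socs2 rose, while Socs1 and Socs3 did not pass. Cish (ENSMUSG00000032578, chromosome 9, 107296026 to 107302784, plus strand) encodes CIS, which binds the activated receptor. It had 141, 120.0, 121, 92.8, 132 and 90.6 CPM in Atg5-deficient replicates 1 to 6 and 70.2, 60.1, 94.1, 83.0 and 85.3 CPM in wild-type replicates 1 to 5. Atg5-deficient replicates 4 and 6 lay just under wild-type replicate 3, and the other 4 above every wild-type library. From 78.5 ± 13.4 CPM (SD, n = 5) to 116 ± 20.5 CPM (SD, n = 6) the log2 fold change was 0.56 (SE 0.14, adjusted p = 0.0268), with a 95% interval of the fold from 1.21 to 1.81. The Cish call held in 6 of the 11 leave-one-out fits, each without 1 library. It was lost without Atg5-deficient replicates 1, 2 or 5 (adjusted p = 0.0607, 0.0585 and 0.0511) and without wild-type replicates 1 or 4 (adjusted p = 0.0682 and 0.0523), with log2 fold changes from 0.50 to 0.59 in these fits.

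Socs2 (ENSMUSG00000020027, chromosome 10, 95385362 to 95417180, minus strand), best known as a brake on growth hormone signalling through STAT5, had the largest log2 fold change of the 10 genes. Atg5-deficient replicates 1 to 6 had 43.6, 17.8, 31.8, 18.2, 20.5 and 16.5 CPM, and wild-type replicates 1 to 5 had 8.12, 12.2, 14.6, 9.46 and 13.5 CPM. Socs2 was the only one of the 10 whose groups did not overlap, against 4.86% of all tested genes in either direction and 2.78% in this one. Replicates 1 and 3 stood well above the other 4 Atg5-deficient libraries. Socs2 rose from 11.6 ± 2.73 CPM (SD, n = 5) to 24.7 ± 10.8 CPM (SD, n = 6), with a log2 fold change of 1.09 (SE 0.27, adjusted p = 0.0313) and a 95% interval of the fold from 1.43 to 3.19. Without Atg5-deficient replicate 1 the log2 fold change was 0.86, still a call. The call was lost without wild-type replicates 1, 2, 4 or 5 (adjusted p = 0.0732, 0.0553, 0.0736 and 0.0553), with log2 fold changes from 0.99 to 1.155.

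Socs1 (ENSMUSG00000038037, chromosome 16, 10782240 to 10785536, minus strand), which inhibits Janus kinases directly, had 25.8, 25.2, 31.9, 22.7, 26.8 and 25.1 CPM in Atg5-deficient replicates 1 to 6 and 22.1, 31.02, 27.0, 26.9 and 26.0 CPM in wild-type replicates 1 to 5. The ranges lay on each other. The log2 fold change of Socs1 was -0.02 (SE 0.11, adjusted p = 0.934) with a 95% interval from -0.25 to 0.21, which bounds a rise at 1.155-fold. Without Atg5-deficient replicate 4 or wild-type replicate 2 its sign turned (0.02 and 0.05).

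Socs3 (ENSMUSG00000053113, chromosome 11, 117966079 to 117970047, minus strand), known mainly as the brake on IL-6 family signalling through STAT3, had 210.0, 200.1, 346, 209, 154 and 149 CPM in Atg5-deficient replicates 1 to 6. Wild-type replicates 1 to 5 had 155, 241, 266, 257 and 229 CPM. Atg5-deficient replicate 3 was the highest of all 11 libraries, and the other 5 lay below every wild-type library except replicate 1. With means of 211 ± 71.4 CPM (SD, n = 6) and 229 ± 44.0 CPM (SD, n = 5), the log2 fold change of Socs3 was -0.12 (SE 0.21, adjusted p = 0.782). It was -0.31 (adjusted p = 0.186) without replicate 3.

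The kinase gene Pim1 (ENSMUSG00000024014, chromosome 17, 29490753 to 29496112, plus strand) had 465, 524, 532, 368, 396 and 355 CPM in Atg5-deficient replicates 1 to 6 and 262, 329, 372, 332 and 373 CPM in wild-type replicates 1 to 5. Of the Atg5-deficient libraries 4 lay above every wild-type library, and replicates 4 and 6 lay within the wild-type range. The means were 440.1 ± 78.0 CPM (SD, n = 6) and 334 ± 45.01 CPM (SD, n = 5). With edgeR the log2 fold change of 0.40 (SE 0.13, adjusted p = 0.0719) missed the threshold. It was past it with DESeq2 (0.41, adjusted p = 0.0327), with limma-voom (0.42, adjusted p = 0.0236), with no low-count filter (adjusted p = 0.0103) and without Atg5-deficient replicate 6 (0.45, adjusted p = 0.0465). Cish and Pim1 overlap antisense genes that had less than 1% of their counts (0.442% to 0.713%).

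**Figure D2:**
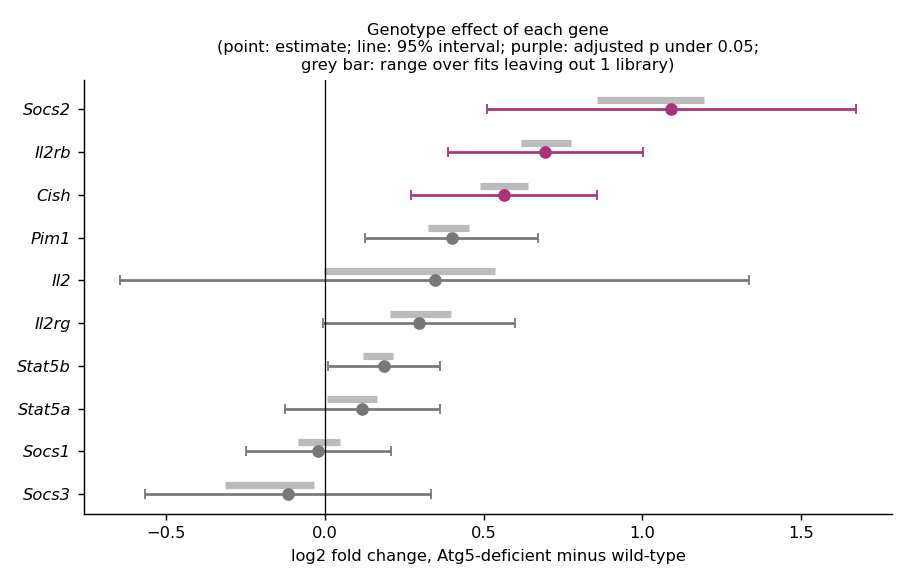
Log2 fold change of each gene (Atg5-deficient minus wild-type, edgeR) with its 95% interval as a thin line. Purple marks an adjusted p under 0.05, and thick grey bars span the estimates of the 11 fits that left out 1 library. Socs2, Il2rb and Cish lie at 1.09, 0.69 and 0.56, and the estimates of Socs1 and Socs3 lie at or below 0 (-0.02 and -0.12).

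Levels of different genes were compared per kilobase of merged GENCODE exons. This length includes exons of unprocessed transcripts, for example in Cish and Stat5a, whose levels are then understated. Socs2 had the longest merged length of the 10 genes (9531 bases), and how far this lowers its level per kilobase was not tested. In wild-type libraries the order in CPM per kilobase was Il2rg (130.4 ± 9.34), Pim1 (99.2 ± 13.4), Il2rb (81.1 ± 13.3), Socs3 (79.3 ± 15.2), Stat5b (51.1 ± 1.53), Cish (12.2 ± 2.08), Stat5a (11.6 ± 0.959), Socs1 (9.14 ± 1.10), Socs2 (1.22 ± 0.286) and Il2 (0.721 ± 0.270), each ± SD over n = 5. Ranges overlapped between the neighbours Pim1 and Il2rb, Il2rb and Socs3, Cish and Stat5a, Stat5a and Socs1, and Socs2 and Il2, but not between Il2rg and Pim1, Socs3 and Stat5b, Stat5b and Cish, or Socs1 and Socs2. In Atg5-deficient libraries Il2rb (131 ± 25.4) and Pim1 (130.9 ± 23.2, SD, n = 6) had nearly equal means, with Il2rb above Pim1 in 2 of 6 libraries, whereas in the wild-type group Pim1 was above Il2rb in 5 of 5. The remaining order was the same, from Il2rg (160.0 ± 36.3) to Il2 (0.917 ± 0.574), and ranges of neighbours were apart between Stat5b and Cish and between Socs1 and Socs2.

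**Figure D3:**
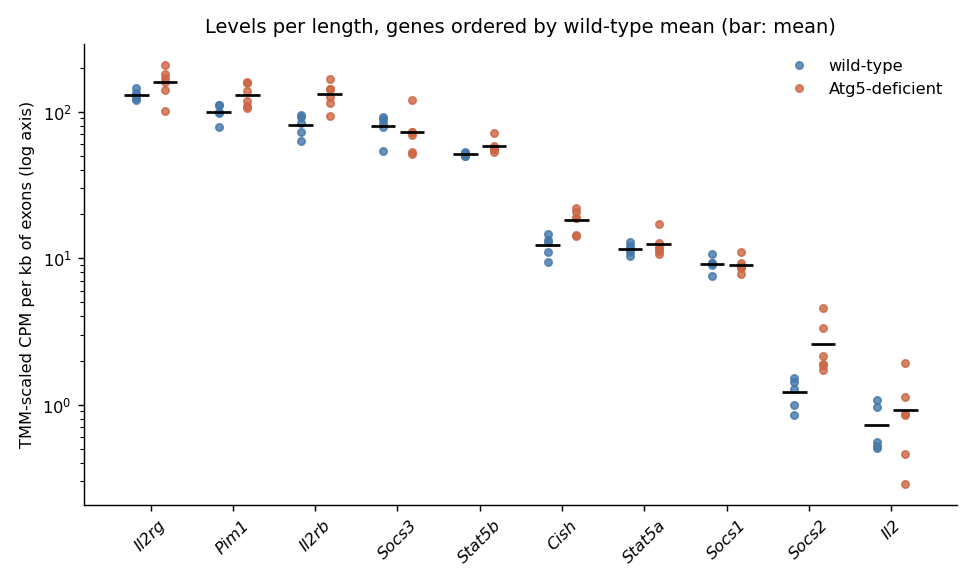
TMM-scaled CPM per kilobase of exon on a log axis, with genes ordered by their wild-type mean. Points are libraries (5 wild-type in blue, 6 Atg5-deficient in orange) and bars are means. Wild-type means run from 130.4 for Il2rg to 0.721 for Il2.

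Atg5-deficient replicate 3 departed from the other Atg5-deficient libraries in several of these genes. It was the highest of the 6 for Stat5a, Stat5b, Socs1, Socs3 and Pim1, the second highest for Il2, Il2rb and Socs2, and the lowest for Il2rg. Against the mean of the other 5 it had 122 against 82.9 ± 5.13 CPM for Stat5a, 395 against 308 ± 11.3 CPM for Stat5b and 346 against 185 ± 30.4 CPM for Socs3 (SD, n = 5). Its Il2rg level was 242 against 410.0 ± 59.2 CPM. Without this library Il2rb (log2 fold change 0.67), Cish (0.55) and Socs2 (1.01) were still called and Il2rg was called in addition. The count over all genes was then 2143 rather than 1231. Wild-type replicate 1 had the lowest wild-type level of Il2rb, Socs1, Socs2, Socs3, Pim1 and Il2.

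**Figure D4:**
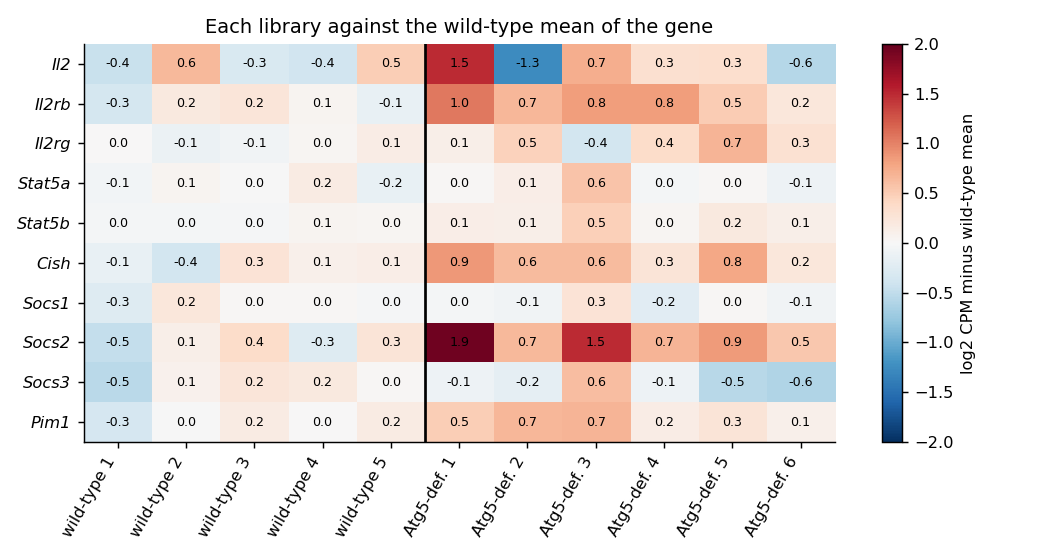
Log2 CPM of each gene in each library minus the mean log2 CPM of the 5 wild-type libraries. Red is above and blue below that mean, and printed digits are the differences. Il2rb, Stat5b, Cish, Socs2 and Pim1 are above it in all 6 Atg5-deficient libraries (Stat5b by 0.04 to 0.48), and replicate 3 is below it for Il2rg.

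Markers of other cells that carry these receptors were measured in the same libraries. In bulk RNA fewer cells of a type and less RNA per cell cannot be told apart. Of 7 markers of regulatory T cells 5 rose (Foxp3, Ikzf2, Tnfrsf18, Itgae and Nrp1), against 4.43% of all tested genes called higher, and Ikzf4 and Ctla4 did not pass. Log2 fold changes of the 7 markers ran from 0.65 (Ikzf4) to 1.29 (Itgae). Their sum ran from 1014 to 1524 CPM in Atg5-deficient and from 484 to 850 CPM in wild-type libraries, without overlap (exact permutation, two-sided, p = 0.00433, the smallest the design allows). Adjusted over 14 cell types the p was 0.0606, which missed the threshold. A cell type that reaches the smallest p alone cannot pass this adjustment, so the miss says nothing about the separation. Activated T cells outside this subset also express Ctla4, Tnfrsf18 and Itgae, and Ikzf4 is also on the list of STAT5 targets used below. Il2rb, Cish and Socs2 were also higher in Atg5-deficient libraries. The marker sum was 1014, 1524, 1342, 1314, 1273 and 1032 CPM in Atg5-deficient replicates 1 to 6. It was 727, 484, 850, 713 and 737 CPM in wild-type replicates 1 to 5. The part of the regulatory T cell markers in the 3 rises was not tested.

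Summed markers of natural killer cells, which carry Il2rb, ran from 38.5 to 196 CPM against 36.4 to 51.2 CPM (exact permutation, adjusted p = 0.228), and none of the 6 tested markers was called. Of these, Nkg7 (104 CPM) and Eomes (83.0 CPM), which T cells can also express, made up most of the 196 CPM of Atg5-deficient replicate 4, and Ncr1 stayed at or under 0.305 CPM in every library. The log2 fold changes of Nkg7 (1.46) and Eomes (1.57) were positive, and those of Klrb1c (-1.49), Klrk1 (-0.80) and Klrd1 (-0.43), receptors of natural killer cells, were negative. The part of these markers in the rise of Il2rb was not tested. Of the CD8 markers, Cd8a was at or under 0.157 CPM in every library, and the sum of Cd8a and Cd8b1 ran from 4.21 to 6.46 CPM against 4.93 to 6.39 CPM. The sums of the other 10 cell types besides CD4 T cells did not pass the test either.

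**Figure D5:**
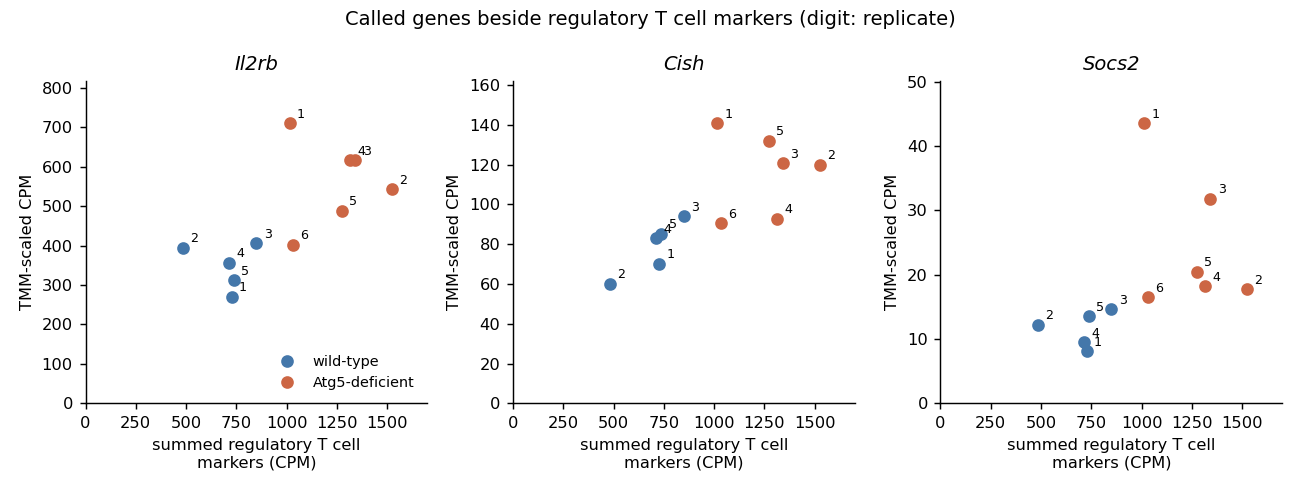
CPM of Il2rb, Cish and Socs2 (vertical) against the summed CPM of 7 regulatory T cell markers (horizontal), 1 point per library, with replicate numbers. Values in a panel share the library and its scaling. The genotypes separate along the horizontal axis (484 to 850 CPM in wild-type against 1014 to 1524 CPM in Atg5-deficient libraries).

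Other components of the pathway were read from lists by role, with the calls of the same edgeR fit. All lists were chosen with earlier results of these data known, so their counts are descriptive. Their counts stand beside 4.43% of all tested genes called higher and 2.41% called lower. DESeq2 and limma-voom called more genes overall (13.2% and 19.0%), and their counts are given with each list. The regulatory T cell marker sum given above differed between the same groups, and its part in these calls was not tested. Of the Janus kinases and other STATs, 2 of 9 rose, none fell and 7 did not pass with edgeR (22.2% called, median log2 fold change 0.27). DESeq2 called 3 higher and 0 lower, and limma-voom 4 higher and 1 lower. Jak2, which serves receptors other than that of IL-2, rose by a log2 value of 0.41 (SE 0.08, adjusted p = 0.0135), with 245.4 ± 22.8 against 185 ± 14.99 CPM and no overlap of the groups. Tyk2, a kinase of the IL-12 and interferon receptors, rose by a log2 value of 0.35 (adjusted p = 0.0357), a call in 4 of 11 leave-one-out fits. The kinases bound to the IL-2 receptor did not pass with edgeR or DESeq2, and limma-voom called both. Jak3 stood at 222 ± 32.6 against 184 ± 15.4 CPM (0.27, adjusted p = 0.122) and Jak1 at 899 ± 60.7 against 992 ± 40.1 CPM (-0.14, adjusted p = 0.262).

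Of 10 genes of other gamma chain receptors and cytokines, 8 were tested and 0 passed with edgeR (3 at an unadjusted p under 0.05). DESeq2 called Il21 higher, and limma-voom called Il15ra higher and Il4ra and Il7r lower. The smallest p values by edgeR were those of Il21 (log2 fold change 1.35, adjusted p = 0.0983) and Il15ra, the private chain of the IL-15 receptor (0.59, adjusted p = 0.118). Il7r, the IL-7 receptor chain of resting T cells, stood at 445 ± 85.6 against 514 ± 30.4 CPM (-0.21, adjusted p = 0.316).

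Of 20 further genes listed as negative regulators of cytokine signalling 2 rose, none fell and 18 did not pass with edgeR (10% called, median 0.02). The list covers cytokine signalling in general, and the role of each gene at the IL-2 receptor was not tested. DESeq2 called 3 higher and 0 lower, and limma-voom 4 higher and 2 lower. Pias3, an inhibitor of STAT3, stood at 21.2 ± 0.879 against 14.1 ± 1.81 CPM and rose by a log2 value of 0.58 (SE 0.10, adjusted p = 0.00665), a call in all 11 leave-one-out fits. Ptpn11, which encodes the phosphatase SHP2, rose from 122 ± 6.30 to 170 ± 32.8 CPM (0.48, adjusted p = 0.0237), in 9 of those fits. The other SOCS genes, Socs4 to Socs7, had log2 fold changes from -0.05 (Socs6) to 0.21 (Socs7) and did not pass.

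Of 24 listed targets of STAT5 other than the genes above, 5 rose, none fell and 19 did not pass with edgeR (20.8% called, median 0.21). DESeq2 called 8 higher and 1 lower, and limma-voom 6 higher and 1 lower, Pim2 being the lower gene of both. The cell cycle kinase gene Cdk6 stood at 138 ± 17.0 against 80.0 ± 10.7 CPM and rose by a log2 value of 0.79 (SE 0.11, adjusted p = 0.00250). Gzmb, which encodes granzyme B, stood at 98.2 ± 41.9 against 32.6 ± 6.80 CPM and rose by 1.59 (SE 0.29, adjusted p = 0.0118). Both were called in all 11 leave-one-out fits. The survival gene Bcl2l1 (0.65, adjusted p = 0.0224), Tnfrsf4, which encodes OX40 (0.94, adjusted p = 0.0288), and Id2 (0.61, adjusted p = 0.0450) rose and were called in 8, 5 and 3 of those fits. Myc stood at 39.5 ± 11.5 against 45.1 ± 6.53 CPM (-0.19, adjusted p = 0.557) and Bcl2 at 208 ± 60.9 against 232 ± 53.7 CPM (-0.16, adjusted p = 0.682). With edgeR the related kinase genes Pim2 (-0.49, adjusted p = 0.0621) and Pim3 (0.01, adjusted p = 0.984) did not pass. Several of these targets also respond to other signals, so the list does not isolate STAT5.

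Of 25 genes of the MAP kinase and PI3 kinase arms of the receptor, the kinase gene Akt1 rose by a log2 value of 0.40 (SE 0.11, adjusted p = 0.0486, a call in 3 of 11 leave-one-out fits) and 24 did not pass with edgeR (4.0% called, median 0.06). DESeq2 called 3 higher and 0 lower, and limma-voom 5 higher and 1 lower. Of 16 factors that regulate Il2 transcription, 2 rose, 1 fell and 13 did not pass with edgeR (18.8% called, median 0.09). DESeq2 called 3 higher and 2 lower, whereas limma-voom called 3 higher and 4 lower, so the balance of directions depended on the tool. Ikzf3, which encodes the Il2 repressor Aiolos, rose from 275.2 ± 17.3 to 391 ± 53.9 CPM (0.51, SE 0.10, adjusted p = 0.00991), and Jun, a component of AP-1, fell from 552 ± 77.4 to 391 ± 36.8 CPM (-0.50, SE 0.10, adjusted p = 0.0116). Both were called in all 11 of those fits. Nfatc1 rose by 0.40 (adjusted p = 0.0408), in 3 of the fits.

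For each gene that rose, the protein-coding genes with the most similar profile over the 11 libraries were found by the root mean square difference of standardised log2 CPM, among 12693 genes. For Il2rb these were Icam1 (0.200 SD), Serpina3g (0.214 SD) and Pogk (0.221 SD), against a median of 1.29 SD over all genes compared. For Cish they were Gata3 (0.308 SD), Selenom (0.331 SD) and Diaph1 (0.338 SD). For Socs2 they were Ero1l (0.281 SD), Tbc1d9b (0.284 SD) and Sec24d (0.293 SD), of which Ero1l and Sec24d encode proteins of the endoplasmic reticulum and its vesicles. These genes were picked for the smallest differences, so they lie under the median by selection. The profiles include the difference between genotypes, and genes of the same libraries share depth and scaling.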

How the data were processed

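The protocols in the labels name a stranded total RNA kit for all 11 libraries, 6 Atg5-deficient and 5 wild-type. Raw counts of reads for each Ensembl gene were deposited; STAR, featureCounts and the GRCm38 build appear in the submitters' processing notes, without versions. The sources used here state no annotation release, strand setting or treatment of multimapping reads. Groups follow the genotype label, and replicate numbers only follow accession order. The table had 0 columns of other samples. Symbols, coordinates and exon lengths are those of GENCODE M21, in which 52125 of 56748 gene IDs (91.9%) were found.

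The low-count filter was edgeR's filterByExpr, with a minimum count of 10 and a minimum total of 15. After TMM scaling, edgeR's robust quasi-likelihood F test was fitted with genotype as the only term, and p-values were Benjamini-Hochberg adjusted over 17987 genes at a threshold of 0.05. The SE is the log2 fold change divided by the square root of F. Marker sums, as log2 (CPM + 1), and the Stat5a to Stat5b ratio were put to two-sided exact permutation tests of the genotype labels. A floor of 3 counts equals 0.0631 to 0.0977 CPM before TMM scaling, depending on the library. The fit was tested on simulated counts with known changes. It recovered 19.4%, 56.7% and 74.2% of genes changed 1.5-fold, 2-fold and 4-fold. Of its 111 calls 11 were false, a larger share than the 0.05 that the threshold aims at. Far fewer genes were changed than were called in the data, and low-count genes were among them. These shares are therefore not the recovery of the 10 genes. Changed genes were missed at each fold, so not passing does not show that a gene was unchanged. Software was edgeR 4.0.16, DESeq2 1.42.0 and limma 3.58.1 under R 4.3.3, and SciPy 1.17.1 under Python 3.11.15. Tried as alternatives were edgeR's RLE and upper-quartile factors, DESeq2, limma-voom (sample quality weights), a filter removed or raised to a minimum count of 50, library sizes that leave out mitochondrial, haemoglobin and hepatocyte genes, the 8 libraries with consecutive title numbers, and leave-one-out fits over the 11 libraries.

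The genes described and all lists were chosen with earlier results of these data known. Named are the 10 genes, up to 4 called members of a pathway list with the smallest p (or the first 2 by p where none was called), Il7r, Il15ra, Jak1, Jak3, Myc and Bcl2, and the 3 nearest profiles of each gene that rose. Outside that rule, Id2, Il4ra, Pim2, Pim3, the other SOCS genes and Gm20489 were named after their values were seen.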

Additional observations from a re-analysis of the deposited data

Results flagged for a closer look

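Of 50 sets of values checked (the 10 genes, the Stat5a to Stat5b ratio and the marker sums, each in 2 genotypes), 5 held a library that stood apart by Dixon's criterion, where chance flags about 1 in 20. Atg5-deficient replicate 3 accounted for 3 of them, with 122.379 CPM of Stat5a (nearest library 90.5), 395.344 CPM of Stat5b (nearest 323) and 346.154 CPM of Socs3 (nearest 210.0). Atg5-deficient replicate 4 had 196.151 CPM of summed natural killer cell markers (nearest 70.1), and wild-type replicate 3 had 4.86079 CPM of summed dendritic cell markers (nearest 2.66).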

How the results depend on the processing

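The rises of Il2rb, Cish and Socs2 kept their direction in all 19 alternatives; single calls were lost as follows. In the 8 libraries with consecutive title numbers alone (5 Atg5-deficient, 3 wild-type) 176 genes and 0 of the 10 members were called with edgeR (4 at an unadjusted p under 0.05), with log2 fold changes of 0.63 for Il2rb (adjusted p = 0.0505), 0.62 for Cish (adjusted p = 0.0827) and 1.13 for Socs2 (adjusted p = 0.102). DESeq2 called 2385 genes and limma-voom 3426, with Pim1 past the threshold at 0.41 and 0.42. With no low-count filter Socs2 lost its call (1.09, adjusted p = 0.104) and Pim1 gained one (0.40, adjusted p = 0.0103). Leaving out 1 library gave 642 to 2143 called genes and 1 to 4 called members (1 without wild-type replicate 1 or 4). The count of genes was 2143 without Atg5-deficient replicate 3, and 715, 642, 702, 673, 710 and 651 without Atg5-deficient replicates 1, 2 and 4 and wild-type replicates 1, 4 and 5. Log2 fold changes then ran from 0.62 to 0.77 for Il2rb, 0.49 to 0.64 for Cish, 0.86 to 1.19 for Socs2, 0.33 to 0.45 for Pim1, 0.21 to 0.40 for Il2rg, 0.01 to 0.16 for Stat5a, 0.12 to 0.21 for Stat5b, -0.31 to -0.03 for Socs3, -0.0041 to 0.54 for Il2 and -0.084 to 0.048 for Socs1. The cause of these changes was not tested. The sign turned for Il2 (-0.0041 without Atg5-deficient replicate 1), for Socs1 (0.02 without Atg5-deficient replicate 4, 0.048 without wild-type replicate 2), for erythroid markers (0.01, 0.12, 0.02 and 0.17 without Atg5-deficient replicates 1 and 6 and wild-type replicates 1 and 5; log2 difference) and for macrophage markers (0.0062 without Atg5-deficient replicate 5). Erythroid differences ran from -0.26 to 0.17 and macrophage differences from -0.31 to 0.0062. The Stat5a to Stat5b ratio kept its direction without a call in 12 of 12 alternatives. Il2 has no value with the strict filter, which removed it. No paired analysis was run because the labels give no pairing of libraries between the genotypes.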
